A study of Mus musculus with 35 samples.

Results

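The mitochondrial genome makes the 7 mRNAs described here in single mouse cells with and without micronuclei, namely mt-Nd1, mt-Nd2, mt-Nd4, mt-Nd5, mt-Nd6, mt-Co1 and mt-Cytb. They were chosen by symbol with earlier results of these data known, and 7 of 7 had a row among the 19085 genes of the count table. The cells were 35 MEFs (fibroblasts grown out of mouse embryos) of strain C57Bl/6J, kept in 3% O2 and 5% CO2. Both groups received 1 Gy of ionising radiation, were moved to membrane dishes 32 h after it and, at 48 h, were stained for DNA with PicoGreen and cut out one by one with a laser. Micronuclei, small chromatin bodies apart from the nucleus proper, were seen in the 21 cells of one group and in none of the 14 cells of the other. There was no unirradiated group, and the labels give no genotype beyond the strain. Libraries of polyadenylated RNA were made with Smart-seq2, which covers whole transcripts, does not mark the strand and adds no molecular identifiers.

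The mitochondrial genome is a small circular DNA that is copied into long RNAs from both strands and then cut at its tRNAs into ribosomal RNAs, tRNAs and mRNAs. All of its mRNAs encode membrane subunits of the respiratory chain or of ATP synthase, which cells build together with many subunits encoded in the nucleus. Nd1 to Nd6 belong to complex I, which takes electrons from NADH; Cytb is the cytochrome b of complex III; Co1 is the catalytic subunit of complex IV, where oxygen is reduced. In single-cell work the share of mitochondrial reads is also used as a sign of cell and RNA quality.

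The labels tie no cell to a culture or animal. A group was therefore taken as 1 sample, without tests, p-values or a replicate check, and all values describe these cells. Reads on genes numbered 56766 to 2023111 per cell. Spike-in RNAs, added in equal amount to each lysate in the usual protocol, took between 0.155% and 7.39% of the reads in a cell. No pair of cells among 595 was identical. All 10 fibroblast markers had reads, and their summed level ranged from 2873 to 15142 CPM (read counts divided by the cell's reads on genes, on the usual CPM scale, spike-ins left out) with micronuclei and from 5026 to 16419 CPM without. Macrophage markers, 8 of 8 of which had reads somewhere, were at 0 in most cells. In micronucleated cells they reached 15546 CPM in cell 10 (8 markers with reads) and 1452 CPM in cell 6 (only 1 marker). They stood at 469 CPM in cell 18 (6 markers) and 325 CPM in cell 4 (4 markers). A cell without micronuclei had at most 64.1 CPM. Skeletal muscle markers (3 of 5 with a row) reached 6445 and 2144 CPM in the groups with and without micronuclei. Adipocyte markers (2 of 4 with a row) reached 146 and 75.6 CPM, endothelial markers (3 of 4) 10.8 and 33.4 CPM, and epithelial markers (3 of 4, with Krt8 at 0) 2.79 and 28.3 CPM. Cells are numbered within their group in the order of the record.

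The table held 34 mitochondrial rows, 13 for mRNAs, 2 for ribosomal RNAs and 19 for tRNAs. The 7 listed mRNAs held nearly all mRNA reads, and the sequence of the others is shown first because it bears on what could be counted. In the GENCODE M21 annotation of GRCm38, 7 pseudogenes lie side by side on the minus strand of chromosome 1 over 4663 bases, from 24611535 to 24616197, and repeat a stretch of the mitochondrial genome. The mRNA mt-Co2, which encodes the copper-binding subunit of complex IV, and its copy Gm28661 differed at 0 of 681 aligned bases. A stretch of both, from their bases 301 to 360, reads identically (any difference would be in capitals):
mt-Co2, chrM:7313-7372, plus strand: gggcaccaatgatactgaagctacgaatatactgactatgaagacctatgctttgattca
Gm28661, chr1:24615206-24615265, minus strand: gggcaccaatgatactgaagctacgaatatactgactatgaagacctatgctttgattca

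Among the listed mRNAs, mt-Nd4 (a proton-pumping subunit of complex I) shares its first 876 bases with the copy Gm28439 and keeps 502 bases of its own. The stretch below, bases 827 to 926 of mt-Nd4, shows that border, and capitals mark the first bases past the shared part:
mt-Nd4, chrM:10993-11092, plus strand: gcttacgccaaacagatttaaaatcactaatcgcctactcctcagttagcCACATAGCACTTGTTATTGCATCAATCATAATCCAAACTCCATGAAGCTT

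A pair of listed mRNAs also meets on opposite strands. The last 14 bases of mt-Nd5 are the complement of the last 14 of mt-Nd6, the one listed mRNA of the minus strand, and capitals mark them in the ends of both:
mt-Nd5, chrM:13526-13565, plus strand: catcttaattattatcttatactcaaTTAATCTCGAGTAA
mt-Nd6, chrM:13552-13591, minus strand: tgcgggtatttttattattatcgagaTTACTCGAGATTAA
Without strand, reads over these bases, and reads of mt-Nd6 and of RNA copied from the opposite strand there, cannot be told apart.

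On chromosome M the listed genes, each a single exon without introns, lie at 2751 to 3707 (mt-Nd1), 3914 to 4951 (mt-Nd2), 5328 to 6872 (mt-Co1), 10167 to 11544 (mt-Nd4), 11742 to 13565 (mt-Nd5), 13552 to 14070 (mt-Nd6) and 14145 to 15288 (mt-Cytb). Each mRNA was cut into all its 50-base windows, and windows found in an annotated nuclear transcript were counted as shared. The share was 0% for mt-Nd1, mt-Nd6 and mt-Cytb, 7.61% for mt-Nd5, 8.19% for mt-Nd2, 51.1% for mt-Co1 and 62.2% for mt-Nd4. Over all cells the levels per kilobase of length were 2295 CPM for mt-Nd1, 1385 for mt-Cytb, 886 for mt-Nd2, 837 for mt-Nd6, 646 for mt-Nd5, 605 for mt-Co1 and 370 for mt-Nd4. The listed mRNAs with the most shared sequence thus had the lowest levels per length.

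The other 6 mRNAs stood far lower. The shared windows made up 97.99% of mt-Nd3, 98.8% of mt-Nd4l, 99.5% of mt-Atp6, 99.9% of mt-Co3 and 100% of mt-Co2, and these 5 mRNAs held 336 of 176407 mitochondrial mRNA reads, or 0.190%. Their levels per kilobase lay between 0.773 CPM (mt-Co2) and 29.5 CPM (mt-Nd3). The 7 nuclear copies together held 351 reads, with at most 24 in a cell. For mt-Atp8, a small subunit of ATP synthase, 0% of windows were found in an annotated transcript, and it had 2 reads in all. It starts between mt-Co2 and mt-Atp6, whose copies Gm28661 and Gm10925 both lie among the pseudogenes on chromosome 1. Nuclear sequence without annotated transcripts, such as that between these copies, was not searched, so its true shared part is not known. How reads that match several places were counted is not given in the sources used here, so levels of mt-Co1, mt-Nd4 and the 6 other mRNAs are uncertain.

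**Figure D1:**
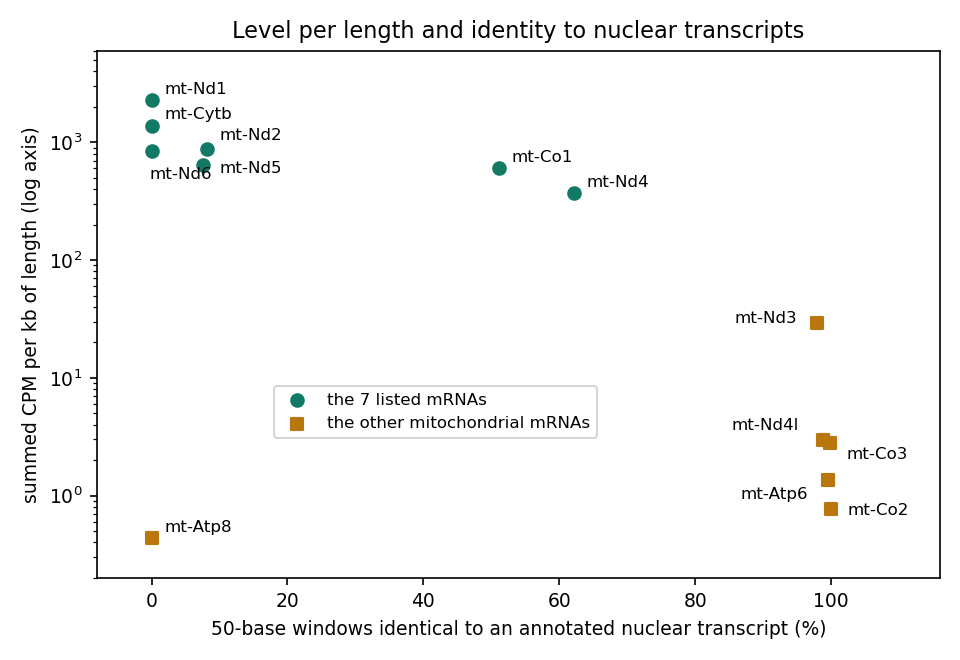
Level of the 13 mitochondrial mRNAs over all cells, as summed CPM per kilobase of length on a log axis, against the percentage of their 50-base windows found in an annotated nuclear transcript. The listed mRNAs (circles) lie between 370 and 2295 CPM per kilobase; the others (squares) lie at or below 29.5, 5 of them at 97.99% or more and mt-Atp8 at 0%.

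When reads were set against only the windows not shared with a nuclear transcript, the order among the listed mRNAs changed. The level per kilobase of own sequence was 2419 CPM for mt-Nd1, 1447 for mt-Cytb, 1279 for mt-Co1, 1016 for mt-Nd4, 1013 for mt-Nd2, 924 for mt-Nd6 and 718 for mt-Nd5. The order was the same with 75-base windows. This scale assumes that shared windows gave no read, which was not tested. mt-Nd1 lay above mt-Cytb in 32 of 35 cells, by a mean of 1194 ± 2171 CPM per kilobase (SD of the difference over cells). For this pair and for the other neighbours the mean difference was smaller than its SD. The order of mt-Nd1 and mt-Cytb nevertheless held in 18 of 21 cells with and 14 of 14 cells without micronuclei. mt-Cytb lay above mt-Co1 in 17 of 35 cells, mt-Co1 above mt-Nd4 in 19, mt-Nd4 above mt-Nd2 in 25, mt-Nd2 above mt-Nd6 in 19 and mt-Nd6 above mt-Nd5 in 18. By read number, not corrected for length, mt-Nd1 ranked 28 and mt-Cytb 48 among all genes.

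Every listed mRNA had reads in all 35 cells, with the exception of mt-Co1 in micronucleated cell 6. That cell had 0 mt-Co1 reads among 220313, which by counting error alone allows a level of up to 13.6 CPM (3 reads). RNA that was not captured is not covered by that bound. The cell also had the fewest nuclear genes, 2380, with 6.38% spike-in reads. All 7 passed the minimum for a measured gene, which was 5 CPM over all cells and 5 reads in 5 cells and left 8390 genes. They passed in both groups, so this minimum selected none of them for a difference.

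Together the 7 mRNAs took a small and variable share of a cell's reads. With micronuclei the share was 0.157% in the lowest cell (cell 6), 0.516% at the median and 2.95% in the highest (cell 21), with an SD of 0.722. Without micronuclei it was 0.238% in the lowest cell (cell 4), 0.789% at the median and 1.73% in the highest (cell 3), with an SD of 0.482. The difference of the medians was smaller than either SD, and the ranges overlapped. At the low end 5 micronucleated cells lay below every cell of the other group, and at the high end 3 lay above. Counting error was small against this spread: the exact 95% Clopper-Pearson interval was 0.141% to 0.174% in the lowest cell and 2.90% to 3.00% in the highest, and covers counting error only.

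Complex I supplied 5 of the mRNAs. mt-Nd1, which forms part of the channel through which ubiquinone enters, stood at 113 CPM (cell 6), a median of 1542 CPM and 9237 CPM (cell 18) with micronuclei, and at 762 CPM (cell 4), a median of 2230 CPM and 6083 CPM (cell 3) without. The group without micronuclei thus lay inside the range of the other, and 5 micronucleated cells lay below its lowest cell. mt-Nd2, another membrane subunit with a proton path, stood at 36.3 CPM (cell 6), 570 CPM (median) and 1964 CPM (cell 3) with micronuclei and at 179 CPM (cell 4), 643 CPM (median) and 3403 CPM (cell 5) without. Here the highest values were in the other group, with 3 cells without micronuclei above every micronucleated cell.

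mt-Nd4 ranged from 94.2 CPM (cell 13) through a median of 569 CPM to 2023 CPM (cell 18) with micronuclei, and from 164 CPM (cell 14) through 601 CPM to 1194 CPM (cell 3) without. Micronucleated cells were both the 4 lowest and the 4 highest. mt-Nd5, the largest of the proton-pumping subunits, ranged from 145 CPM (cell 6) through a median of 918 CPM to 3908 CPM (cell 3) with micronuclei, and from 208 CPM (cell 4) through 1636 CPM to 2430 CPM (cell 7) without. The highest cell was again micronucleated, although the median was lower. mt-Nd6 had the narrowest spread between cells, from 91.5 CPM (cell 15) through 310 CPM to 781 CPM (cell 3) with micronuclei and from 169 CPM (cell 11) through 375 CPM to 1264 CPM (cell 5) without. Its SD between cells was 0.79 on the log2(CPM + 1) scale, against 1.06 to 2.42 for the other listed mRNAs.

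mt-Cytb, of complex III, ranged from 180 CPM (cell 9) through a median of 1006 CPM to 13899 CPM (cell 21) with micronuclei, and from 499 CPM (cell 14) through 1206 CPM to 4281 CPM (cell 11) without. In level micronucleated cell 21 stood apart, with the next micronucleated cell at 2769 CPM. As a share of the listed mRNAs' reads, mt-Cytb made up 47.1% in cell 21 and 42.2% in micronucleated cell 7, against a median of 15.4% over all cells. mt-Co1, of complex IV, ranged from 0 CPM (cell 6) through a median of 781 CPM to 5694 CPM (cell 21) with micronuclei, and from 62.6 CPM (cell 4) through 573 CPM to 2926 CPM (cell 11) without. Of the 7 it varied most between cells, and it was the one whose median was higher with micronuclei.

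**Figure D2:**
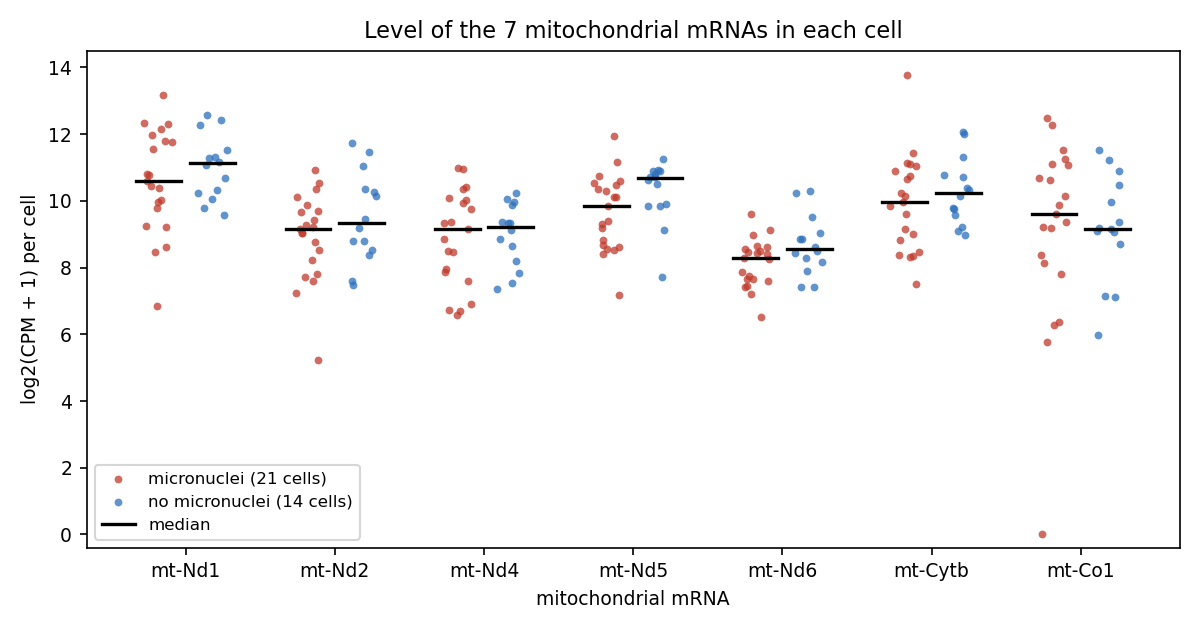
Level of each listed mRNA in each cell on the log2(CPM + 1) scale, with 1 point per cell (21 with and 14 without micronuclei, shifted sideways at random) and a bar at the median of each group. The groups overlap for all 7 mRNAs, and mt-Co1 has 1 cell at 0.

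Summed over the cells of a group, the 7 mRNAs stood at 6051 CPM with micronuclei (95% Poisson interval 6005 to 6097) and at 9387 CPM without (9331 to 9442). These intervals cover counting error only. The log2 ratio of micronucleated over other cells, with 1 CPM added to both, was -0.63. Weighting cells equally gave -0.07, and as a difference of mean log2 levels -0.31. All are smaller than the SD of 1.10 between cells on that scale. Cell 7 without micronuclei, the deepest library, held 27.8% of its group's reads on the listed mRNAs, and micronucleated cell 21 held 19.1%. The summed ratio was -0.44 without the first of these cells and -0.88 without the second. With equal weight it lay between -0.26 and 0.047 when single cells were left out.

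By gene the summed levels with and without micronuclei were 1488 and 2872 CPM for mt-Nd1, a log2 ratio of -0.95. They were 575 and 1249 CPM for mt-Nd2 (-1.12), 907 and 1435 CPM for mt-Nd5 (-0.66), and 313 and 551 CPM for mt-Nd6 (-0.81). With equal weight the ratios were -0.08 for mt-Nd1, -0.72 for mt-Nd2, -0.42 for mt-Nd5 and -0.64 for mt-Nd6. As differences of mean log2 levels they were -0.44, -0.59, -0.61 and -0.53 in the same order. These 4 mRNAs were lower with micronuclei in summed counts, with equal weight and in mean log2 levels, as were 25.6% of measured genes. For mt-Nd1 the equal-weight ratio changed sign when cell 3 (0.085), cell 7 (0.055) or cell 11 (0.031) lacking micronuclei was left out, an alternative chosen after seeing the data.

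The other 3 changed direction with the weight of a cell. mt-Nd4 stood at 428 and 588 CPM (log2 ratio -0.46, equal weight 0.23), mt-Co1 at 887 and 981 CPM (-0.15, equal weight 0.55) and mt-Cytb at 1453 and 1711 CPM (-0.24, equal weight 0.13, or -0.49 with equal weight and micronucleated cell 21 left out). Leaving out cell 11 of those lacking micronuclei put mt-Co1 at 0.29 and mt-Cytb at 0.084. mt-Co1 was also above 0 without micronucleated cell 13 (0.09) or 14 (0.04). Without micronucleated cell 21, mt-Co1 was at -0.51 and mt-Cytb at -0.85.

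In the summed counts 7 of 7 listed mRNAs were thus lower with micronuclei, against 44% of all measured genes, and 1 of 7, mt-Nd2, was lower by 1 log2 unit or more, against 14.7%. The mRNAs come from the same cells, and all but mt-Nd6 from the same strand of 1 genome, so they are not 7 separate observations. With equal weight 4 of 7 were lower, against 47.2%, and in mean log2 levels 7 of 7, against 36.1%. mt-Nd2 no longer passed 1 log2 unit without any one of 4 cells (-0.67 and -0.86 with cell 7 or cell 5 lacking micronuclei left out, and -0.92 and -0.98 with micronucleated cell 13 or 7 left out). mt-Nd1 passed it in 8 of 35 leave-outs. The median over all measured genes was itself at 0.15 in summed counts and at 0.05 with equal weight. With each cell thinned to 119337 reads, which left out 5 shallower cells, the ratio of the 7 mRNAs summed was -0.24. That of mt-Nd1 was -0.48, and the median over all measured genes 0.08. Thinning also gives the cells kept equal weight, so the part of depth by itself was not tested.

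The 2 ribosomal RNAs of the same genome, mt-Rnr1 and mt-Rnr2, held more reads than the listed mRNAs in most cells. Their share had a median of 0.996% and a mean of 2.53% ± 5.03 (SD over 21 cells) with micronuclei, and a median of 1.39% and a mean of 1.39% ± 0.643 (SD over 14 cells) without. It reached 22.9% in micronucleated cell 18 and 8.26% in cell 4, against at most 2.82% without micronuclei. Those same cells held 2.05% and 0.989% of reads on the listed mRNAs, so their ratio of rRNA to listed mRNA reads was 11.2 and 8.35, against a median of 1.91 with and 1.71 without micronuclei. The log2 ratio of the summed rRNA rows was -0.25, and 0.86 with equal weight, which became 0.12 without cell 18. mt-Rnr1 stood at 0.54 in summed counts (0.12 without cell 18) and mt-Rnr2 at -0.44. Cells 18 and 4 had only 115191 and 92222 reads and held reads of 6 and 4 macrophage markers. But micronucleated cells 10 and 6, with the highest macrophage marker levels, had rRNA shares of only 0.505% and 0.337%. The still shallower micronucleated cells 19 and 20 had 1.74% and 3.21%. Whether depth or cell type had a part in the high shares was not tested. Over the 35 cells the rRNA share went with the share of the listed mRNAs at a Spearman rho of 0.73, and with depth at -0.45. The share of all mitochondrial rows, 25.7% in cell 18, was mostly rRNA there. Without cells 4 and 18 the log2 ratio of the 7 mRNAs was -0.68, and it was -0.68 too without the 4 cells above 100 CPM of macrophage markers. Both of these alternatives were chosen after seeing the data.

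**Figure D3:**
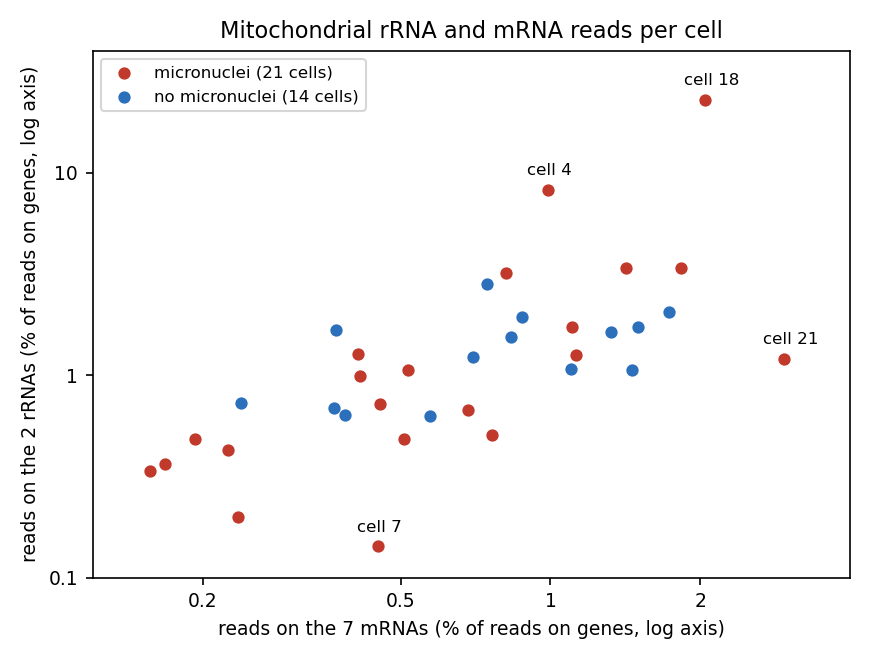
Share of reads on the 2 mitochondrial rRNAs against the share on the 7 listed mRNAs, both in percent of reads on genes on log axes, with 1 point per cell; labelled cells are micronucleated. Cells 18 and 4 lie highest on the rRNA axis at 22.9% and 8.26%, and cell 21 lies farthest right at 2.95% with an rRNA share of 1.21%.

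Levels of the listed mRNAs went together across cells, but not all to the same degree. For these correlations each level was log2(CPM + 1) over reads on nuclear genes, so that mitochondrial reads did not enter the total. All points share a library, its depth and its capture, so rho is a description with no p. The 21 pairs had a median Spearman rho of 0.64 over 35 cells, with a lowest value of 0.21 (mt-Nd6 with mt-Co1) and a highest of 0.85. The median Pearson r was 0.66. Within the groups the median rho was 0.68 with and 0.65 without micronuclei, and it was 0.61 without the 2 cells farthest from the median (micronucleated cells 6 and 21).

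The pairs fell into 2 sets, which were drawn up after these values were seen. Among mt-Nd1, mt-Nd4, mt-Co1 and mt-Cytb, 6 pairs had a rho of 0.79 to 0.85. Among mt-Nd2, mt-Nd5 and mt-Nd6, 3 pairs had a rho of 0.70 to 0.82. Across the sets 12 pairs had a rho of 0.21 to 0.69, with a median of 0.51. In the cells with micronuclei alone the medians were 0.85 and 0.73 within the sets and 0.60 across them, and in the other cells 0.84, 0.82 and 0.47. By Pearson r, and by rho within each group, pairs within and across the sets overlapped. Pearson r was 0.68 to 0.84 and 0.59 to 0.84 within the sets and 0.13 to 0.69 across them. With micronuclei alone rho reached 0.76 across the sets, against a lowest value of 0.67 within the second. Without micronuclei it reached 0.71 across them, against lowest values of 0.70 and 0.67 within. Complex I subunits are in both sets. By annotation mt-Nd2 and mt-Nd5 are on the plus strand and mt-Nd6 on the minus strand, but the libraries do not mark the strand. In position mt-Nd2 lies between mt-Nd1 and mt-Co1, whereas mt-Nd5 and mt-Nd6 overlap. Whether complex, strand or position had a part in the sets was not tested. The set of mt-Nd2, mt-Nd5 and mt-Nd6 took 9.33% to 62.6% of a cell's reads on the listed mRNAs with micronuclei (median 29.6%) and 10.2% to 57.6% without (median 37.5%).

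**Figure D4:**
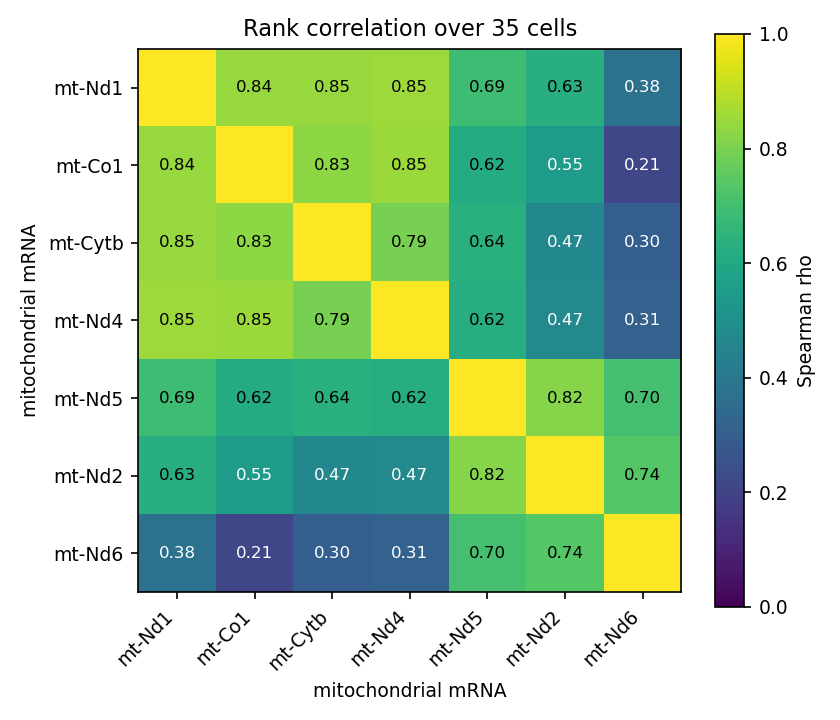
Spearman rho of each pair of listed mRNAs over the 35 cells, computed on log2(CPM + 1) over reads on nuclear genes. The block of mt-Nd1, mt-Co1, mt-Cytb and mt-Nd4 lies at 0.79 to 0.85, the block of mt-Nd5, mt-Nd2 and mt-Nd6 at 0.70 to 0.82, and mt-Nd6 has the lowest values with the first block, 0.21 to 0.38.

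The share of the listed mRNAs went only weakly with the number of nuclear genes detected in a cell. The Spearman rho was -0.16 and Pearson r -0.27 over 35 cells, and rho was -0.22 with and -0.09 without micronuclei. Without any 1 cell rho lay between -0.27 and -0.10. After each cell was thinned to 119337 reads, which left out 5 shallower cells, rho was -0.17 over 30 cells. Single mRNAs differed: mt-Nd6 had a rho of -0.44 with genes detected (-0.49 after thinning), and the others lay between -0.02 (mt-Co1) and -0.27 (mt-Nd5).

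The 2 sets also differed in how they went with spike-in share, which is high where a cell gave little RNA of its own. For mt-Nd2, mt-Nd5 and mt-Nd6 rho with the spike-in share was 0.55, 0.52 and 0.51. For mt-Nd1, mt-Nd4, mt-Co1 and mt-Cytb it was 0.09, 0.14, 0.06 and 0.03. The median over 8390 measured genes was -0.15, and 0.203% of them had a rho above 0.5. In the cells with micronuclei rho was 0.45, 0.35 and 0.39 for mt-Nd2, mt-Nd5 and mt-Nd6, and in the other cells 0.69, 0.64 and 0.61. Over all 35 cells the rRNAs mt-Rnr1 and mt-Rnr2 lay between the sets, at 0.33 and 0.36. In cells without micronuclei they were at 0.67 and 0.69, within the range of mt-Nd2, mt-Nd5 and mt-Nd6. In cells with micronuclei they were at 0.24 and 0.22. The number of genes detected went with spike-in share at -0.50, so the part of RNA yield in these relations was not tested.

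**Figure D5:**
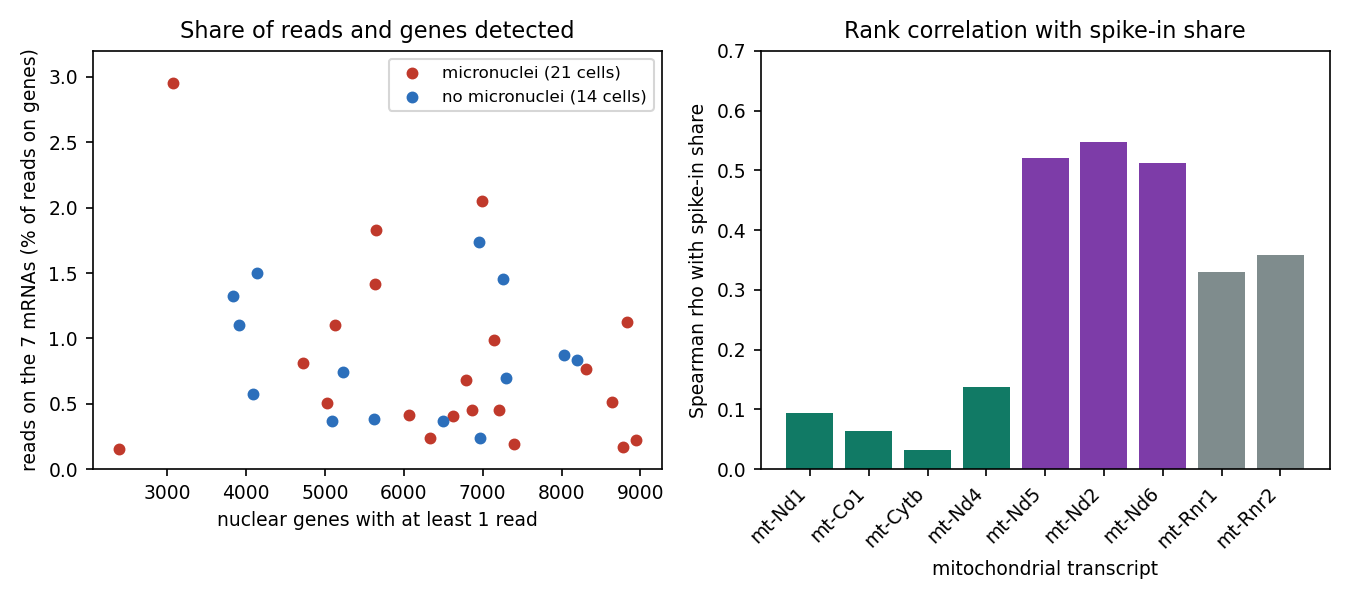
Left, share of reads on the 7 listed mRNAs (percent of reads on genes) against the number of nuclear genes with at least 1 read, with 1 point per cell (rho -0.16). Right, Spearman rho over 35 cells of each mRNA and rRNA with the spike-in share; mt-Nd5, mt-Nd2 and mt-Nd6 stand at 0.51 to 0.55, and the other listed mRNAs at 0.03 to 0.14.

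Among the other mitochondrial rows with reads in all cells, mt-Rnr2 had a rho of 0.78 with the summed listed mRNAs, the tRNA row mt-Tq 0.69, mt-Rnr1 0.63 and the tRNA row mt-Tp 0.45. mt-Nd3, the one further mRNA that passed the minimum, had 0.44. Of the tRNA rows mt-Tq, on the minus strand at 3772 to 3842 between mt-Nd1 and mt-Nd2, held the most reads, 2617. It is 71 bases long and overlaps mt-Ti, at 3706 to 3774 on the other strand, only at the ends of both. Without strand, reads over those few bases may belong to either, and its reads may also belong to a precursor.

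Nuclear genes that varied most like the listed mRNAs were found among 3797 with at least 5 reads in at least 18 cells, whose median rho was -0.05. Among the 6 highest were Rpl3-ps1 at 0.61, Rpl3 at 0.57, and Rpl14, Pabpc4 and Rps18 each at 0.55. Rpl3, Rpl14 and Rps18 encode proteins of the cytosolic ribosome, and Pabpc4 a protein that binds poly(A) tails. Rpl3-ps1 is a pseudogene named after Rpl3, so reads of the pair are uncertain. In cells without micronuclei alone rho was lower for 4 of these, at 0.14 to 0.40, and 0.59 for Rpl14. They were picked as the highest of many values, so their rho is a description.

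The nuclear partners of the same complexes went little with the listed mRNAs from cell to cell. Of 72 listed nuclear subunits of complexes I, III, IV and V, 71 were measured, and their median rho with the listed mRNAs was 0.04. In summed counts 27 were higher and 44 lower with micronuclei, that is 62.0% lower against 44% of all measured genes, with a median log2 ratio of -0.14. Only 3 were higher by 1 log2 unit or more and 0 were lower by as much, against 22.9% and 14.7% of measured genes. The subunits together had a median of 22632 CPM per cell with and 23818 CPM without micronuclei. The measured genes beside them go down to 5 CPM and were not matched for level, so the part of level in these shares was not tested. As differences of mean log2 levels the median of the subunits was 0.01, against 0.30 over all measured genes.

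Of the complex I subunits 14 were higher and 23 lower, with a median log2 ratio of -0.10. Ndufv1, which binds NADH, stood at 149 CPM with and 44.3 CPM without micronuclei, a log2 ratio of 1.73. It was 1.01 with equal weight, and 2.39 in summed counts without cell 4 of the latter, which held 45.6% of that group's Ndufv1 reads. Ndufa10 stood at 149 and 281 CPM (-0.91), but cell 7 held 65.6% of its reads in the group without micronuclei, and without that cell the ratio was 0.35. Of the complex III subunits 4 were higher and 5 lower; the core subunits Uqcrc1 (595 and 245 CPM, 1.28) and Uqcrc2 (105 and 38.3 CPM, 1.43, equal weight 0.79) were the highest. Of the complex IV subunits 5 were higher and 5 lower, and the small subunit Cox7c was the lowest at 173 and 331 CPM (-0.93). Of the ATP synthase subunits 4 were higher and 11 lower, from the catalytic subunit Atp5b at 927 and 700 CPM (0.40) to the ring subunit Atp5g2 at 23.2 and 40.9 CPM (-0.79).

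Genes that copy and transcribe the mitochondrial genome were less abundant. Of 15 with a row, 8 were measured, and 4 were higher and 4 lower in summed counts, that is 50% lower against 44% of all measured genes. With no minimum 8 of the 15 were lower, a count that has no share of all genes beside it. The single-strand DNA-binding protein Ssbp1 stood at 53.6 CPM with and 129 CPM without micronuclei (-1.25, equal weight -0.68). Mterf3, a member of the mitochondrial transcription termination factor family, stood at 23.5 and 86.8 CPM (-1.84). It was at -2.91 without micronucleated cell 7, which held 60.4% of its group's reads. Without cell 7 of the other group, which held 40.2%, it was at -1.39. Among those higher, Mterf4 was at 0.97 (-0.88 without micronucleated cell 14) and Polg2 at 0.45 (-1.46 without micronucleated cell 21).

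Of 20 genes for mitochondrial RNA processing and stability 18 were measured, with 10 higher and 8 lower (44.4% lower, against 44%). Under a stricter minimum of 20 CPM and 10 cells 5 were lower. The number measured and the share of all genes at that minimum are not given here, so no share can be read from such counts. The mitochondrial poly(A) polymerase Mtpap stood at 16.5 and 1.64 CPM (2.73, equal weight 1.87) but had 5 reads or more in 8 and 1 cells. Without micronucleated cell 21, which held 44.3% of its group's reads, it was at 2.00. Ptcd3, of the pentatricopeptide repeat family, stood at 15.1 and 62.6 CPM (-1.99). It was at 0.12 once cell 8 lacking micronuclei was left out, and at -3.20 without micronucleated cell 9. Of 9 regulators of mitochondrial biogenesis 6 were measured, with 2 higher and 4 lower (66.7% lower, against 44%). Under the stricter minimum 2 were lower, again without a share. The transcription factor Nrf1 stood at 13.4 and 61.8 CPM (-2.13) with 5 reads or more in 2 and 5 cells. It was at -3.48 without micronucleated cell 9, at -1.30 without cell 8 of the others, and at -0.52 as a difference of mean log2 levels. The coactivator Pprc1 stood at 41.6 and 3.53 CPM (3.23, equal weight 2.46) with 5 reads or more in 9 and 4 cells. Median rho with the listed mRNAs was -0.06, -0.04 and -0.10 for these lists in turn, against -0.06 over all measured genes.

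RNAs known to stay in the nucleus were looked at beside the mitochondrial ones. Malat1 stood at 12871 CPM with and 17510 CPM without micronuclei (-0.44), and Neat1 at 1713 and 1269 CPM (0.43). As differences of mean log2 levels they were at -0.96 and -0.54, so Neat1 changed direction. Meg3 had a summed log2 ratio of 0.87, but 0.025 without micronucleated cell 11, which held 50.97% of its group's reads. Kcnq1ot1 had 0.60, and 0.25 to 1.01 when single cells were left out. The 4 had a median rho of -0.19 with the listed mRNAs, from -0.13 (Neat1) to -0.23 (Meg3).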

How the data were processed

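The authors deposited 1 table of read counts, not normalized, for 35 cells and 19147 features (19085 genes and 62 spike-ins). Per the submitters' processing notes and deposited phenotype table, STAR aligned the reads to GRCm38.p5, and they were counted with Rsubread, and filtered with scater on spike-in share, genes and counts per cell; for versions, strand and multi-mapping the settings used were not given in the sources used here. Counts were summed per group or scaled per cell to CPM without spike-ins. Members and lists were chosen with earlier results of these data known. Named genes are all mitochondrial rows, the 2 highest and 2 lowest log2 ratios of each list (some given as counts only), and the 6 nuclear genes nearest by rho (1 of them is not reported here). Columns of other samples numbered 0. Coordinates and sequences come from GENCODE M21. Alternatives were other weights, scalings, pseudocounts, depths and cells. The calculations were tested on simulated data. Tools were Python 3.11.15 with pandas 2.3.3, numpy 2.4.6 and scipy 1.17.1, and edgeR 4.0.16 in R 4.3.3 for TMM factors.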

Additional observations from a re-analysis of the deposited data

How the results depend on the processing

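The summed log2 ratio of the 7 mRNAs kept its sign in 13 alternatives, from -0.80 (without 4 cells with under 4000 genes) to -0.07 (equal weight). After thinning it was -0.24. In 35 leave-outs from the summed counts it kept its sign too, from -0.88 to -0.44. With equal weight and single cells left out it lay between -0.26 and 0.047, so the sign was not kept there. Scaling to spike-in reads gave -0.42, when the median of all measured genes was at 0.37 instead of 0.15; TMM gave -0.77, with that median at 0.01. The number of mRNAs lower with micronuclei was 4 with equal weight, 4 after thinning and 5 to 7 in leave-outs. With equal weight mt-Nd4 was at 0.23, mt-Co1 at 0.55 and mt-Cytb at 0.13; after thinning they were at 0.076, 0.21 and 0.17. mt-Co1 was also at 0.45 from medians and 0.067 with spike-in reads as the total, and mt-Nd6 at 0.030 in 22 cells with 5000 to 8000 genes after thinning. Leave-outs ranged from -0.51 to 0.29 for mt-Co1 and from -0.85 to 0.084 for mt-Cytb. For the ratios that changed sign the cause was not tested. Median shares were 0.512% to 0.599% with and 0.745% to 0.833% without micronuclei in leave-outs, and 1.43% and 2.31% over all mitochondrial rows. The rho of share with genes was -0.27 for genes with at least 5 reads. No paired analysis was possible because replicate numbers only name cells and no test was made.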
